A study of Homo sapiens with 4 samples.

Results

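The cytosolic ribosomal protein mRNAs were examined in RNA immunoprecipitation sequencing (RIP-seq) libraries of KIAA1429. Members were chosen by gene name: symbols of the RPL, RPLP, RPS and RPSA series with at least 1 listed protein-coding transcript, without ribosomal protein kinases and pseudogenes. This gave 79 genes, 47 of the large (60S) and 32 of the small (40S) subunit, among 13300 gene names, and 420 of the 34975 listed transcripts. The 4 libraries came from HCCLM3, an established human hepatocellular carcinoma (HCC) cell line. In 2 libraries RNA was recovered with an antibody against KIAA1429 (KIAA1429 RIP), and in the other 2 with normal IgG (IgG RIP), which gives the background of RNA that comes down without the target. No other treatment, knockdown or time course separated the groups. The labels do not say whether replicates came from separate cultures, so p-values measure only the spread between these libraries, which may be technical.

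KIAA1429, also named VIRMA, is a scaffold of the nuclear complex that writes N6-methyladenosine (m6A) on RNA, and the comparison asks which RNAs come down with it beyond the IgG background. Ribosomal protein mRNAs are short, abundant and long-lived messages present in every growing cell, because each ribosome needs about equal amounts of its proteins. Most begin with a 5′ terminal oligopyrimidine (TOP) tract, a C at the first base followed by a run of C and T (C and U in the RNA). This tract lets the kinase mTOR, through the cap-binding protein LARP1, turn their translation up or down together. HCC cells, like other tumour cells, depend on a high output of ribosomes.

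The TOP tract is the sequence feature for which the family is best known, and it is shown here for some of the members described with their values. Each line gives the first 24 bases of the most abundant listed protein-coding transcript, read from GRCh37 at the start that GENCODE v44 gives it, as DNA. Capitals mark the tract, searched on the sense strand as a C at base 1 followed by at least 4 bases that are each C or T. The first set holds members with a tract whose mean FPKM was higher in KIAA1429 RIP: RPL39 at chrX:118925570-118925593 (minus strand), RPS12 at chr6:133135708-133135731 (plus strand), RPS18 at chr6:33239852-33239875 (plus strand), RPLP0 at chr12:120638891-120638914 (minus strand), RPLP2 at chr11:809967-809990 (plus strand), RPL5 at chr1:93297597-93297620 (plus strand), RPS6 at chr9:19380211-19380234 (minus strand) and RPS19 at chr19:42364325-42364348 (plus strand).
RPL39: CCCTCCTCTTCCTTTCTCCgccat
RPS12: CTCTTTCCCTgccgccgccgagtc
RPS18: CTCTCTTCCacaggaggcctacac
RPLP0: CCTTCTCTCgccaggcgtcctcgt
RPLP2: CCTTTTCCTCCCTgtcgccaccga
RPL5: CCTTTTCCCaccccctagcgccgc
RPS6: CTCTTTTCCgtggcgcctcggagg
RPS19: CCCTTTCCCCTggctggcagcgcg
Members with a tract and almost the same level in both groups were RPL7A at chr9:136215073-136215096 (plus strand) and RPS3 at chr11:75110562-75110585 (plus strand).
RPL7A: CTTTCTCTCTCCTCCCgccgccca
RPS3: CCTTTCCTTTCagcggagcgcggc
Members without the tract at this start included RPL23 at chr17:37009951-37009974 (minus strand), RPSA at chr3:39448226-39448249 (plus strand), RPL41 at chr12:56510374-56510397 (plus strand), RPL39L at chr3:186857261-186857284 (minus strand) and RPS27L at chr15:63449653-63449676 (minus strand).
RPL23: cggcgttcaagatgtcgaagcgag
RPSA: tgcagaggggtccatacggcgttg
RPL41: acccggcgctccattaaatagccg
RPL39L: gcggtcttagcatccggcgcgcgg
RPS27L: gcagatcgcttgcagcttgctagc
The annotated starts of RPS26, RPS21, RPL12, RPL11 and RPL10A lie upstream of the starts listed with the values, so their 5′ ends are not shown. Those of the genes shown lie at the listed start or downstream of it. For RPS12 the listed start is chr6:133135580, upstream of the bases shown. Of the 74 members whose transcript was matched by its identifier, 46 (62.2%) carried the tract, against 4.38% of 11372 other protein-coding genes and 4 of 77 mitochondrial ribosomal protein genes (5.20%). Members without it whose mean FPKM was higher in KIAA1429 RIP included RPSA, RPL41, RPL39L and RPS27L, and RPL10 and RPS4X, whose bases are not shown. RPL23 was lower. The presence of these letters is a description of the annotated start and not a measurement of where transcription began in these cells.

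The values are FPKM, fragments scaled by the length of the transcript and by the mapped fragments of the library. The scaling by length allows only a rough comparison of levels between genes. Listed transcripts were summed per gene. The totals were compared as log2(FPKM + 1) with limma, a linear model that borrows the variance across all genes, among the 11361 gene totals with a mean of at least 1 FPKM. All 79 members passed this filter. A gene was called at a log2 fold change beyond 1 with an adjusted p under 0.05 (two-sided, Benjamini-Hochberg over all gene totals tested). Read counts were not used here, so depth is unknown and no counting error can be given. Of the hepatocyte markers, all 9 were listed, with AFP from 99.1 to 128 FPKM and ALB from 53.5 to 76.3 FPKM, whereas HNF4A stayed at or below 1.11 FPKM. Of 10 markers of leukocytes, endothelium and fibroblasts, 1 was listed (CD14, from 0 to 2.12 FPKM). Of 4 epithelial markers, KRT18 was at 820.1 to 1048 FPKM, KRT8 at 259.8 to 432 FPKM and EPCAM at 1.41 to 3.21 FPKM, and CDH1 was not among the listed genes.

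As a family, the ribosomal protein mRNAs took up a larger part of the KIAA1429 RIP libraries than of the IgG RIP libraries, but the IgG RIP libraries differed from each other nearly as much. The summed FPKM of the 79 genes was 23496 and 35529 in IgG RIP replicates 1 and 2, and 42609.9 and 49735 in KIAA1429 RIP replicates 1 and 2. Their share of the FPKM sum of all listed transcripts was 7.95% and 11.3% in IgG RIP (9.61% ± 2.34, SD, n = 2) and 12.6% and 14.6% in KIAA1429 RIP (13.6% ± 1.39, SD, n = 2). The groups did not overlap and differed by 4.02 percentage points, or by 2.37 without IgG RIP replicate 1. The step from IgG RIP replicate 2 to KIAA1429 RIP replicate 1 was smaller than either step between replicates. An exact permutation test of 2 against 2 libraries cannot give a two-sided p below 0.333, so this single value was not tested further. FPKM is relative to each library, so a larger share does not tell how many molecules were recovered.

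**Figure D1:**
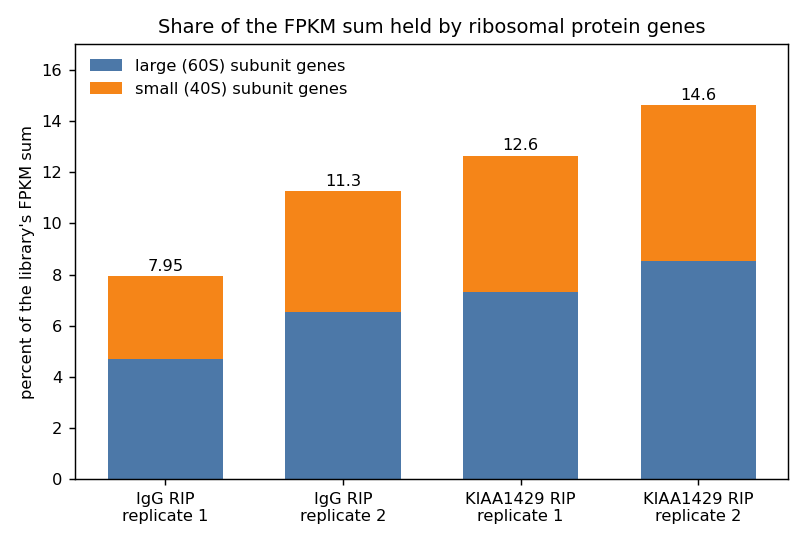
Share of each library's FPKM sum (percent, y axis) held by the ribosomal protein genes in the 4 libraries (x axis), stacked by subunit, with the family's share printed above each bar. The share was 7.95% and 11.3% in the IgG RIP libraries and 12.6% and 14.6% in the KIAA1429 RIP libraries, with both subunits in similar proportion.

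Both subunits were higher in KIAA1429 RIP, in nearly the same proportion. Large subunit genes summed to 13883 and 20602 FPKM in IgG RIP and to 24702 and 28956 FPKM in KIAA1429 RIP. Small subunit genes summed to 9613 and 14927 FPKM in IgG RIP and to 17908 and 20779 FPKM in KIAA1429 RIP. The ratio of large to small subunit FPKM was 1.44 and 1.38 in IgG RIP, against 1.38 and 1.39 in KIAA1429 RIP, so the 2 groups overlapped in it.

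Gene by gene, 78 of the 79 members had a log2 fold change above 0 in KIAA1429 RIP, against 51.4% of all gene totals tested. The median over the members was 0.66 on the log2 scale (0.63 for the large and 0.69 for the small subunit), against 0.02 over all gene totals. The range ran from -0.09 for RPL23 to 1.86 for RPS26, and 9 members were above 1, against 5.3% of all gene totals. No member passed the adjusted threshold: 0 of 79 were called higher and 0 lower by limma, where 0% of all gene totals were called in either direction, and the members' adjusted p-values lay between 0.901 and 0.999. At an unadjusted p under 0.05 from limma, 17 members were higher and 0 were lower, against 3.17% and 1.43% of all gene totals. That count of 17 rests on the libraries used, and how the median log2 fold change moved with a library left out is given below.

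In 58 of the 79 members (73.4%), both KIAA1429 RIP libraries lay above both IgG RIP libraries, against 16.6% of all gene totals. In 0 members did both lie below, against 15.2%, and 21 members overlapped. Chosen after seeing the data, the same count with a library left out was 58 without IgG RIP replicate 1 (background 40.2%), 78 without IgG RIP replicate 2 (background 29.4%), 74 without KIAA1429 RIP replicate 1 (background 30.5%) and 59 without KIAA1429 RIP replicate 2 (background 34.1%).

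The members shared their differences between replicates as well. IgG RIP replicate 1 gave the lowest of the 4 values for 75 of the 79 members, and KIAA1429 RIP replicate 2 the highest for 58. Between the IgG RIP replicates, 76 members were higher in replicate 2, with a median difference of 0.57 on the log2 scale. Of all 11361 gene totals, 4698 were higher in replicate 2, and the median was -0.15. Between the KIAA1429 RIP replicates, 61 members were higher in replicate 2, with a median difference of 0.19, against 5263 of all 11361 gene totals and a median of -0.05. The IgG RIP replicates received the same antibody, and yet their median difference over the family was close to the 0.66 between the groups. In 50 members the difference between the groups was larger in size than that between the IgG RIP replicates. The first is between means of 2 libraries and the second between single libraries, and no share over all gene totals was taken. That count is therefore only a description. The median log2 fold change was 0.41 without IgG RIP replicate 1, which left 73 of 79 members above 0, and 0.96 without IgG RIP replicate 2. Whether the preparation of IgG RIP replicate 1 bears on the family's higher values was not tested.

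**Figure D2:**
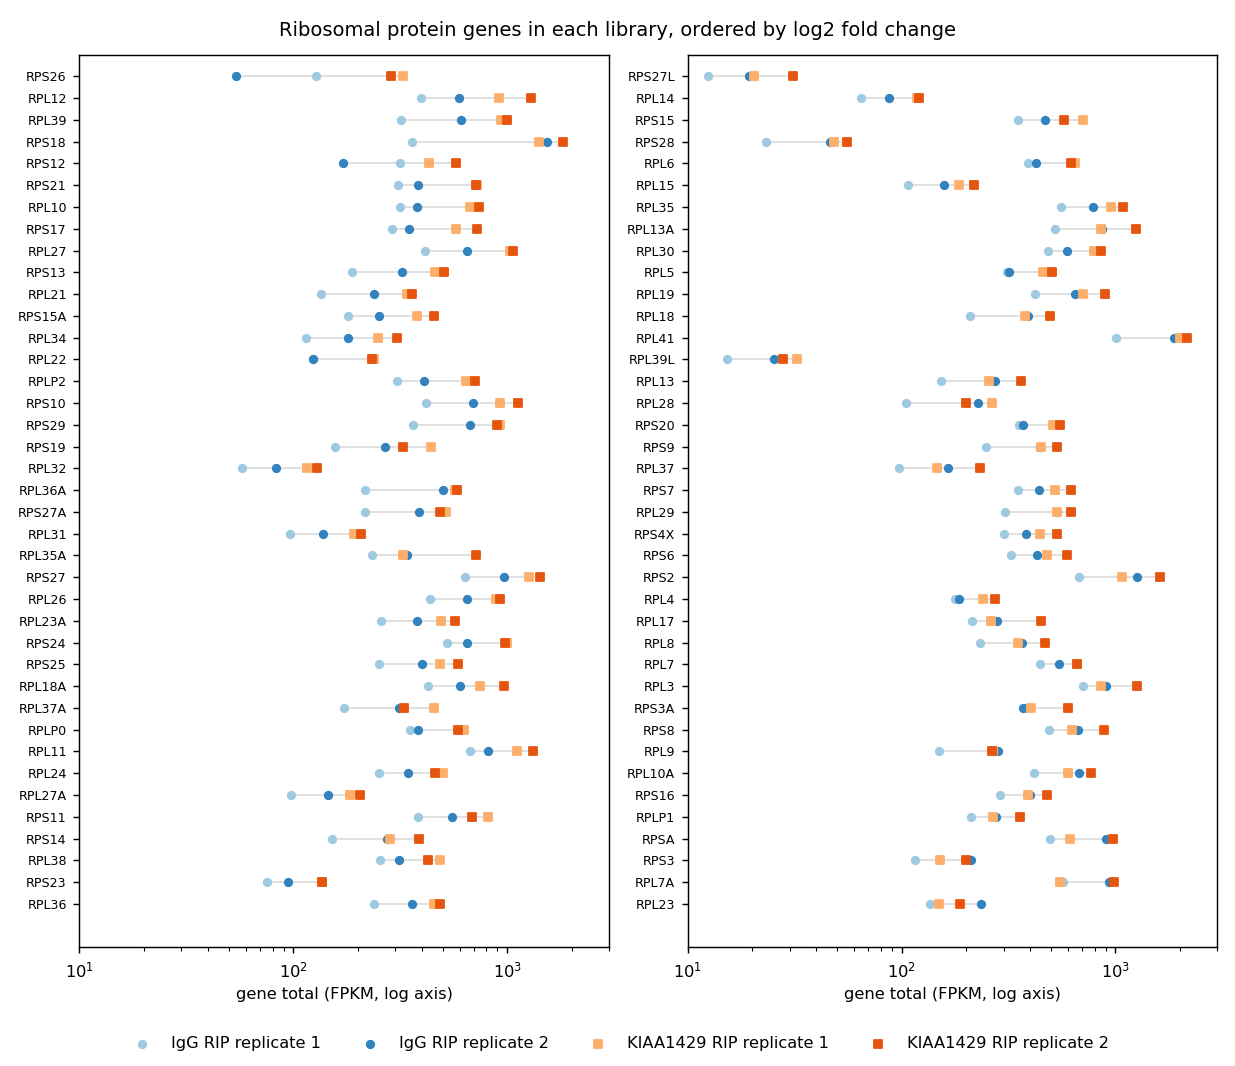
Gene totals (FPKM, log axis) of 78 of the 79 ribosomal protein genes in the 4 libraries, with circles for IgG RIP and squares for KIAA1429 RIP, ordered from the highest log2 fold change (top left) to the lowest (bottom right). The IgG RIP replicate 1 point is the leftmost for 74 of the plotted genes, and in 58 genes both squares lie to the right of both circles.

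The order of the members by abundance was similar in all libraries. Across the 79 genes, Spearman's rho between libraries lay between 0.909 and 0.940, a description over genes that share the same libraries. The median member stood at 288 FPKM in IgG RIP replicate 1, 382 in IgG RIP replicate 2, 484 in KIAA1429 RIP replicate 1 and 572 in KIAA1429 RIP replicate 2. In each library the highest member was RPL41, which encodes a very short basic peptide of the large subunit. It reached 1004 and 1877 FPKM in IgG RIP, against 2002 and 2164 FPKM in KIAA1429 RIP, a log2 fold change of 0.60 (SE 0.49). Of the 79 members, 69 were at or above 100 FPKM in every library.

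The stalk of the large subunit recruits elongation factors to the ribosome. RPL12, which sits at its base, was at 396 and 598 FPKM in IgG RIP and at 914 and 1291 FPKM in KIAA1429 RIP, and the groups did not overlap (log2 fold change 1.16, SE 0.41, limma adjusted p = 0.997). RPLP0, the core of the stalk, was at 349.8 and 384 FPKM in IgG RIP and at 629.5 and 586 FPKM in KIAA1429 RIP (0.73, SE 0.32). Of the acidic tips, RPLP2 was at 306 and 409 FPKM in IgG RIP and at 644 and 706 FPKM in KIAA1429 RIP (log2 fold change 0.93, SE 0.34). RPLP1 was at 211 and 278 FPKM in IgG RIP and at 268 and 356 FPKM in KIAA1429 RIP (0.35, SE 0.33). The groups were apart for RPLP2 and overlapped for RPLP1, and the difference between these partners was not tested.

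RPL5 and RPL11 bind the 5S rRNA and, when ribosome assembly is disturbed, the p53 regulator MDM2. RPL5 was at 313 and 317 FPKM in IgG RIP and at 459.7 and 506 FPKM in KIAA1429 RIP, so that its IgG RIP replicates were nearly equal (log2 fold change 0.61, SE 0.31). RPL11 was at 671 and 817 FPKM in IgG RIP and at 1109 and 1321 FPKM in KIAA1429 RIP (0.71, SE 0.38). Neither reached an unadjusted p under 0.05 in limma. RPL22, singled out after its values were seen, is an RNA-binding protein of the large subunit whose replicates were close in both groups, at 123 and 124 FPKM in IgG RIP and at 239 and 234 FPKM in KIAA1429 RIP (log2 fold change 0.94, SE 0.28, limma adjusted p = 0.993).

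Among proteins of the catalytic core and exit tunnel, RPL10, which joins late in large subunit assembly, was at 316 and 378 FPKM in IgG RIP and at 673 and 735 FPKM in KIAA1429 RIP (log2 fold change 1.02, SE 0.33). RPL39, a small protein that lines the tunnel through which nascent chains leave, was at 320.0 and 609 FPKM in IgG RIP and at 932 and 997 FPKM in KIAA1429 RIP (1.13, SE 0.42). The groups did not overlap for either gene. RPL3, which reaches towards the peptidyl transferase centre, overlapped, with 704 and 901 FPKM in IgG RIP, against 859 and 1268 FPKM in KIAA1429 RIP (0.39, SE 0.41). RPL13A, often used as a reference gene in qPCR, also overlapped, with 522 and 862 FPKM in IgG RIP, against 855 and 1243 FPKM in KIAA1429 RIP (0.62, SE 0.43).

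In the small subunit, RPS26 had the largest log2 fold change of the 79 members. RPS26 lies near the channel where mRNA leaves the ribosome and is mutated in Diamond-Blackfan anaemia. Its single listed transcript, at chr12:56435637-56438459 on the plus strand of GRCh37, was at 127 and 54.3 FPKM in IgG RIP and at 324 and 286 FPKM in KIAA1429 RIP. The log2 fold change was 1.86 (SE 0.43, 95% interval 0.84 to 2.88), with an unadjusted limma p of 0.0036 and an adjusted p of 0.901. RPS26 was 1 of 3 members that were lower in IgG RIP replicate 2 than in replicate 1. RPS12, a protein of the small subunit's beak, had the same order of libraries within IgG RIP, with 317 and 172 FPKM, and was at 431 and 577 FPKM in KIAA1429 RIP (1.09, SE 0.40). RPS21, a small subunit protein named after its values were seen, was at 309 and 385 FPKM in IgG RIP and at 725 and 713 FPKM in KIAA1429 RIP (1.06, SE 0.33), with both groups narrower than the gap between them.

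RPS18, a protein of the small subunit's head, was at 360.3 and 1539.7 FPKM in IgG RIP and at 1405 and 1819 FPKM in KIAA1429 RIP. Its log2 fold change of 1.10 (SE 0.69) came with the widest gap between IgG RIP replicates among the genes named here, and the groups overlapped. It was 0.054 without IgG RIP replicate 1 and 2.15 without IgG RIP replicate 2. RPS2 and RPS3 frame the entry of the mRNA channel. RPS2 was at 676 and 1263 FPKM in IgG RIP and at 1071 and 1625 FPKM in KIAA1429 RIP (0.51, SE 0.48), with overlap. RPS3 was at 115 and 210.2 FPKM in IgG RIP and at 151 and 199 FPKM in KIAA1429 RIP (0.16, SE 0.38), so both KIAA1429 RIP values lay within the IgG RIP range.

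RPS6, the small subunit protein phosphorylated by S6 kinases downstream of mTOR, was at 325 and 429.7 FPKM in IgG RIP and at 481 and 593 FPKM in KIAA1429 RIP (log2 fold change 0.51, SE 0.34). RPS19, a further protein mutated in Diamond-Blackfan anaemia, was at 156 and 269.7 FPKM in IgG RIP and at 439.8 and 325 FPKM in KIAA1429 RIP (0.88, SE 0.38), and its most abundant transcript alone gave 0.52. RPS27, a zinc-finger protein among the 5 most abundant members, was at 635 and 969 FPKM in IgG RIP and at 1261 and 1428 FPKM in KIAA1429 RIP (0.77, SE 0.41). RPS4X, an X-linked member, was at 302 and 382 FPKM in IgG RIP and at 445 and 534 FPKM in KIAA1429 RIP (0.52, SE 0.33). In all of these genes the groups were apart by less than 1 on the log2 scale, and none reached an unadjusted p under 0.05 in limma.

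The members with the smallest or negative differences belonged to both subunits. RPL23, a large subunit protein at the interface with the small subunit, was at 135 and 235 FPKM in IgG RIP and at 149.9 and 187 FPKM in KIAA1429 RIP (log2 fold change -0.09, SE 0.36). RPL7A, whose introns host small nucleolar RNAs, was at 570.2 and 934 FPKM in IgG RIP and at 553 and 986 FPKM in KIAA1429 RIP (0.02, SE 0.46). In both genes the replicates of a group lay further apart than the group means. RPSA, which also serves as a laminin receptor precursor, was at 496 and 908 FPKM in IgG RIP and at 613 and 978 FPKM in KIAA1429 RIP (0.21, SE 0.46). Its most abundant transcript alone, ENST00000443003, gave 4.32, being listed at 0 in IgG RIP replicate 1 and at 593 FPKM in IgG RIP replicate 2, with 402 and 587 FPKM in KIAA1429 RIP. The direction of each of these genes, and that of RPS3, was not stable when a library was left out.

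The paralogs with restricted expression were low. RPL39L, known from testis and some tumours, was at 15.2 and 25.3 FPKM in IgG RIP and at 32.4 and 27.9 FPKM in KIAA1429 RIP (log2 fold change 0.59, SE 0.35). RPS27L, a p53 target, was at 12.5 and 19.4 FPKM in IgG RIP and at 20.3 and 31.2 FPKM in KIAA1429 RIP (0.66, SE 0.38), and its most abundant transcript alone gave 1.31. Their libraries were ordered between groups like those of the abundant members, at levels far below their partners RPL39 and RPS27. RPL3L and RPL10L were not among the listed genes.

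Ribosomal proteins that carry other names were also higher in KIAA1429 RIP. FAU encodes a ribosomal protein fused to a ubiquitin-like domain, and RACK1 is a scaffold bound to the small subunit. In both genes the KIAA1429 RIP libraries lay above both IgG RIP libraries, and neither was called. FAU was at 120.0 and 192 FPKM in IgG RIP and at 223 and 236 FPKM in KIAA1429 RIP (log2 fold change 0.59, SE 0.33). RACK1 was at 162 and 170.5 FPKM in IgG RIP and at 244 and 307 FPKM in KIAA1429 RIP (0.72, SE 0.30, limma adjusted p = 0.997). Of 4 paralogs outside the naming rule, 3 were apart in the same direction and 0 were called. Among all gene totals, 16.6% were apart higher and 0% were called higher. RPL7L1 was the paralog whose groups overlapped (0.07, SE 0.36). RPL36AL, a close copy of RPL36A, was at 92.2 and 90.8 FPKM in IgG RIP and at 203 and 161 FPKM in KIAA1429 RIP (0.98, SE 0.29, limma adjusted p = 0.993).

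Other mRNAs known for TOP tracts, mostly elongation and initiation factors, had smaller differences. Of 17 such genes, 13 had a log2 fold change above 0, 7 were apart higher and 1 lower, 0 were called, and their median was 0.36. Over all gene totals 51.4% were above 0, 16.6% were apart higher and 15.2% lower, and the median was 0.02. EEF1A1, the factor that delivers aminoacyl-tRNA, was at 1955 and 2195 FPKM in IgG RIP and at 1829 and 2667 FPKM in KIAA1429 RIP (0.09, SE 0.48). EEF2, the translocation factor, was at 802 and 1186 FPKM in IgG RIP and at 792 and 1215 FPKM in KIAA1429 RIP (0.01, SE 0.43). BTF3, a subunit of the nascent chain-associated complex, was the 1 gene of this list with an unadjusted limma p under 0.05, at 171 and 129 FPKM in IgG RIP, against 278 and 306 FPKM in KIAA1429 RIP (0.97, SE 0.31). HNRNPA1, a splicing regulator, was the gene that was apart lower, at 359.7 and 387 FPKM in IgG RIP, against 335 and 308 FPKM in KIAA1429 RIP (-0.22, SE 0.31). EIF3F (-0.67), EEF1D (-0.27) and VIM (-0.16) also had log2 fold changes below 0, with overlap.

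The mitochondrial ribosomal protein genes encode the separate ribosome of the organelle and lack the TOP tract in most cases. Of 78 genes, 62 had a log2 fold change above 0, 34 were apart higher and 5 lower, 0 were called, and the median was 0.35, beside the same 51.4%, 16.6%, 15.2% and 0.02 over all gene totals. In limma, 12 had an unadjusted p under 0.05 and were higher, and 1 was lower, against 3.17% and 1.43% of all gene totals. Their summed FPKM was 1413 and 1531 in IgG RIP, against 2111 and 1802 in KIAA1429 RIP. Unlike the cytosolic family, they did not share a shift between the IgG RIP replicates, for which their median difference was 0.04. Between the KIAA1429 RIP replicates, however, their median difference (replicate 2 minus replicate 1) was -0.21, and 22 of the 78 were higher in replicate 2. No test of the difference between the families was made.

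**Figure D3:**
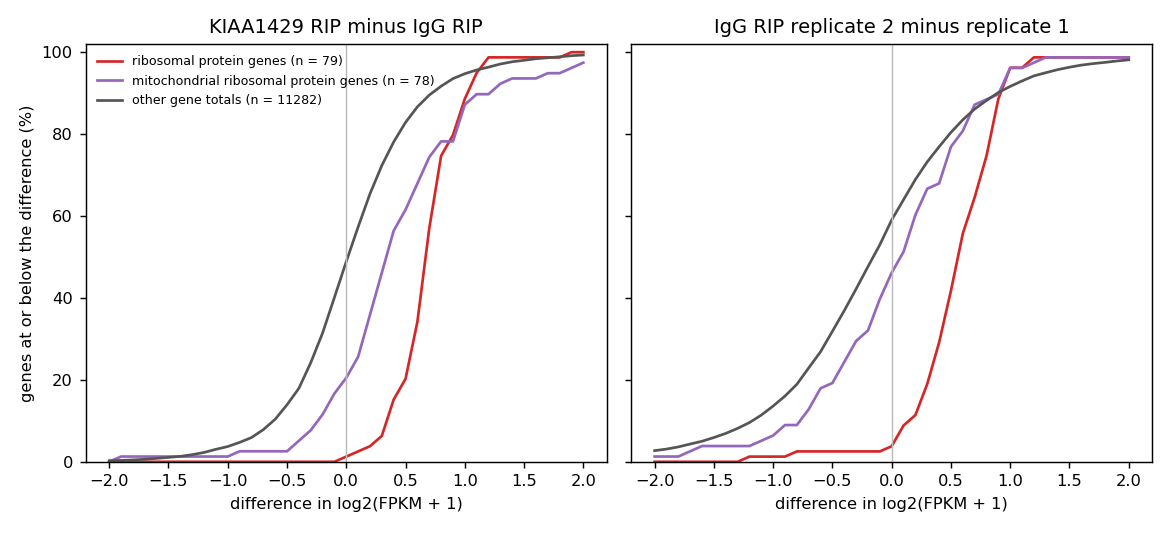
Cumulative percent of genes (y axis) at or below a given difference in log2(FPKM + 1) (x axis), for ribosomal protein genes, mitochondrial ribosomal protein genes and other gene totals; left, KIAA1429 RIP minus IgG RIP; right, IgG RIP replicate 2 minus replicate 1. The curve of the ribosomal protein genes lies to the right of other genes in both panels, with medians of 0.66 (left) and 0.57 (right).

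Ribosomal protein mRNAs are shorter than most, and length moved with the difference between the groups across other genes too. The spliced length of the most abundant listed protein-coding transcript had a median of 770 bases over 74 matched members and 3073 bases over 11372 other protein-coding genes. Other genes under 500 bases had a median log2 fold change of 0.28 (n = 110), those between 500 and 1000 bases 0.35 (n = 816), those between 1000 and 2000 bases 0.13 (n = 1982), those between 2000 and 4000 bases 0.03 (n = 3660) and those above 4000 bases -0.08 (n = 3756). The members' medians were 0.82 under 500 bases (n = 8), 0.69 between 500 and 1000 bases (n = 36), 0.57 between 1000 and 2000 bases (n = 14), 0.69 between 2000 and 4000 bases (n = 11) and 0.66 above 4000 bases (n = 5). Each was above that of other genes in its class. The lengths are those of the GENCODE v44 transcripts and not a measurement of the RNA in these cells, so the long classes may not hold long messages. Between the IgG RIP replicates (replicate 2 minus replicate 1), other genes had a similar order by length. Their medians there were 0.09, 0.11, 0.01, -0.17 and -0.29 from the shortest to the longest class. The members' medians there were higher in each class, at 0.58, 0.59, 0.38, 0.79 and 0.59. Among genes of at least 100 FPKM and under 1000 bases, the median was 0.70 for 43 members, of which 74.4% were apart higher, and 0.40 for 101 other genes, of which 37.6% were. The medians of the same genes between the IgG RIP replicates were 0.59 for the members and 0.16 for the other genes. Over the 74 members themselves, Spearman's rho of log2 fold change with length was -0.35. The part of length in the family's values was not tested.

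The TOP tract, the m6A motif and pseudogenes were also set against the values. Members with a TOP tract at the annotated start had a median log2 fold change of 0.69 (n = 46) and those without it 0.64 (n = 28), and 71.7% and 71.4% of them were apart higher, against 16.6% of all gene totals. Of the named members, RPS26, RPL11 and RPL10A were counted without it, and RPS21 and RPL12 with it, by annotated starts upstream of the listed ones. The split therefore does not tell whether the RNA in these cells began with the tract. The core letters of the m6A motif, GGAC on the sense strand, occurred a median of 3 times in a member's transcript and 11 times in that of other genes, or 2.91 and 3.66 times per kilobase. In 4.05% of the members and 0.783% of other genes the letters were absent. Over members, Spearman's rho of log2 fold change was -0.20 with GGAC per kilobase, -0.24 with the number of exons and 0.07 with mean FPKM. Ribosomal protein genes are also known for processed pseudogenes, and GENCODE names 1587 for 77 of the members, the most for RPL21 with 133. Reads shared with these copies, or with the listed readthrough genes RPL17-C18orf32, RPL36A-HNRNPH2 and RPS10-NUDT3, may have been split between genes in the deposited values. The rho of log2 fold change with the number of pseudogenes was 0.10.

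Listed transcripts of the members showed the same direction with more scatter. Of 420 transcripts, 374 had a mean of at least 1 FPKM, with a median log2 fold change of 0.56 against 0.01 over all 23375 transcripts tested. In limma, 0 were called in either direction (0% of all), and the lowest adjusted p was 0.385. At an unadjusted p under 0.05, 43 were higher and 4 lower, against 3.03% and 2.33% of all transcripts. Both KIAA1429 RIP values lay above both IgG RIP values in 143 and below in 30, against 15.2% and 14.5%. The most abundant transcript of each member had a median of 0.70, and the remaining ones 0.41. The transcripts of the type processed_transcript, which carry no annotated reading frame, made up 4.07% and 5.27% of the members' FPKM in IgG RIP, against 3.54% and 4.91% in KIAA1429 RIP, with overlap.

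Within some genes the transcripts did not move together. In RPL10A, the protein of the mobile stalk beside the exit site, ENST00000478340 was listed at 0 in IgG RIP replicate 1 and at 487, 460.1 and 551 FPKM in IgG RIP replicate 2 and KIAA1429 RIP replicates 1 and 2. ENST00000322203 of the same gene took the opposite course, with 349 FPKM in IgG RIP replicate 1 and 118, 95.9 and 152 FPKM in the other libraries. The total of RPL10A over its transcripts was 416 and 676 FPKM in IgG RIP, against 598 and 772 FPKM in KIAA1429 RIP. In RPL7A, ENST00000468019, of the type processed_transcript, was at 265 and 502 FPKM in IgG RIP and at 118 and 528 FPKM in KIAA1429 RIP, and the coding ENST00000323345 was at 233 and 394 FPKM in IgG RIP and at 361 and 371 FPKM in KIAA1429 RIP. The groups overlapped for each of these transcripts. The transcripts of both genes were chosen after their values were seen. How reads were assigned between overlapping transcripts is not given in the sources used here, and its part in these shifts was not tested.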

How the data were processed

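Per the labels and the study's methods, RNA recovered with an antibody against KIAA1429 or normal IgG from HCCLM3 cells was selected for poly(A), fragmented and sequenced. The study's methods name HISAT2 and GRCh37/hg19, and the submitters' processing notes name Bowtie2 2.1.0. The FPKM tool and annotation release are not given in the sources used here. The authors deposited transcript FPKM, 1 file a library, listing transcripts whose higher group mean was at least 0.5001. FPKM was summed per gene name, and log2(FPKM + 1) of 11361 gene totals and 23375 transcripts with a mean of at least 1 was fitted with limma 3.58.1 in R 4.3.3 (lmFit, eBayes with trend). The fit was tried on simulated data whose rises were larger than that of any member. It therefore does not tell how well differences of the size seen here are found. Counts and medians used Python 3.11.15, pandas 2.3.3 and numpy 2.4.6. Lengths, starts and pseudogenes came from GENCODE v44 lifted to GRCh37, matched by identifier of the most abundant listed protein-coding transcript for 74 of 79 members. Members named were the 5 highest and 5 lowest log2 fold changes, the 5 highest means, restricted paralogs with their partners, and stalk, MDM2-binding and commonly used genes. Others are marked, and genes that meet this rule or belong to a list but are not reported here were kept in all counts. Members and lists were chosen with earlier results of these data known. Alternatives were other pseudocounts, filters and scalings, the replicate block, no trend, coding or most abundant transcripts only, and each library left out.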

Additional observations from a re-analysis of the deposited data

How the results depend on the processing

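Quantile normalization lowered the median log2 fold change of the ribosomal protein genes to 0.39 and that of the small subunit to 0.45, with 71 of 79 members above 0. It turned RPL7A (-0.44), RPS3 (-0.0044) and RPSA (-0.21) negative. The most abundant transcript alone gave 0.17 for RPL23, -0.54 for RPL7A, 4.32 for RPSA (0.21 as reported), 1.31 for RPS27L (0.66) and 0.52 for RPS19 (0.88). Leaving out each library in turn gave medians from 0.41 to 0.96 for all members, 0.41 to 0.94 for the large and 0.42 to 0.96 for the small subunit. It gave ranges from -0.49 to 0.31 for RPL23, -0.40 to 0.43 for RPL7A, -0.27 to 0.59 for RPS3 and -0.23 to 0.64 for RPSA. Same-numbered libraries share only a number: their deviations correlated at 0.187 over all gene totals and 0.07 over the members. With the replicate number as a block, limma called 1 member higher (RPS26, adjusted p = 0.025), and 12 gene totals higher (0.106%) and 1 lower over all, and 53 members were higher at an unadjusted p under 0.05 (background 6.1%). That count, 17 as reported, was 9 under median scaling, 8 under quantile normalization and 8 without the trend. The shares over all gene totals under these settings were not taken, so the lower counts cannot be read as particular to the members. The cause of these changes was not tested. Of 350 values of named members under the alternatives, 336 kept direction and side of the threshold, 1 passed it and 13 reversed. With 2 libraries in each group and no counts, differences of the size seen between replicates could not be resolved.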
